A study of Mus musculus with 6 samples.

Results

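The replication machinery of the mouse blastocyst was followed through 42 genes that copy the nuclear genome, from origin recognition to the supply of deoxynucleotides. The genes were taken by symbol from a table of 55774 genes, and each of the 42 symbols matched 1 Ensembl identifier. Every one of the 42 reached at least 1 FPKM (fragments per kilobase of exon, relative to the fragments of the library) in all 6 libraries and was tested, so none entered the test through 1 group alone. In all, 11924 genes were tested.

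The 2-cell embryos of wild-type ICR mice, taken from the oviducts of dams 6 to 8 weeks old that had been superovulated, were cultured in CZB medium for 75 hours with extracellular vesicles isolated from human Fallopian tubal fluid. In the oEV-EMT group the vesicles came from women with endometriosis. In the oEV-ctrl group they came from women without it, described in the labels as having uterine fibroids, while the study's methods name another gynaecological condition. Each group held 3 libraries, each made from poly(A) RNA of 10 pooled blastocysts, and no library of embryos cultured without vesicles was analysed here. The sources do not say whether the 3 pools of a group were separate cultures or had separate vesicle donors, so the p-values measure only the spread between these pools. In whole blastocysts, fewer cells of a type and less RNA per cell cannot be told apart.

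DNA is copied in an ordered sequence of steps. In G1 the origin recognition complex, with CDC6 and CDT1, loads the MCM helicase on DNA, a step called licensing, and geminin blocks CDT1 later in the cycle so that no origin is licensed again. In S phase CDC45 and GINS join and activate the helicase, primase and DNA polymerases alpha, delta and epsilon synthesise the strands, and the clamp PCNA, its loader RFC, the single-strand binding protein RPA and the enzymes that join Okazaki fragments complete them. Preimplantation embryos divide quickly and rely on this machinery in every cycle, and many of its genes are known targets of E2F transcription factors.

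The 42 genes had a median log2 fold change (oEV-EMT over oEV-ctrl, on the log2(FPKM + 1) scale) of 0.35, against 0.17 over all tested genes, and 37 of 42 were above 0, against 70.1% of all tested genes. None passed an adjusted p of 0.05 in limma, where the background was 0.0% of all tested genes, and the smallest adjusted p among the 42 was 0.157, for *Pola2*. At an unadjusted limma p of at most 0.05, 11 of 42 (26.2%) were higher in oEV-EMT and 0 were lower. The background was 12.8% of all tested genes higher and 2.55% lower. The 11 were the licensing factors *Cdc6* and *Cdt1*, the helicase subunit *Mcm7*, the GINS subunit *Gins2*, the clamp loader subunit *Rfc2*, the polymerase subunits *Pola2*, *Pold1* and *Pold2*, the single-strand binding subunits *Rpa1* and *Rpa2*, and *Rrm2* of ribonucleotide reductase. For 10 of 42 (23.8%) the lowest oEV-EMT library lay above the highest oEV-ctrl library, against 18.1% of all tested genes, and 0 showed the reverse order, against 4.34%. The count of 11 was 3 without oEV-EMT 2 (background 9.34%), 6 without oEV-ctrl 1 (7.96%) and 3 without oEV-ctrl 2 (8.27%). It was 9 without oEV-EMT 1 (13.4%), 10 without oEV-EMT 3 (14.0%) and 12 without oEV-ctrl 3 (12.7%). Leaving out a library cannot undo a separation, so the count of 10 could only stay or rise. It was 12 without oEV-EMT 2 (23.0%), 11 without oEV-ctrl 1 (22.3%) and 14 without oEV-ctrl 2 (21.9%). It was 18 without oEV-EMT 1 (27.2%), 18 without oEV-EMT 3 (30.6%) and 20 without oEV-ctrl 3 (28.0%).

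In the deposited values 70.1% of all tested genes had a log2 fold change above 0. The summed FPKM was nevertheless not raised, at 1293175 to 1355101 in oEV-EMT and 1345866 to 1551567 in oEV-ctrl. The counts depended on the scaling between libraries. After median-of-ratios scaling, which brought the median of all tested genes to 0.01, the median of the 42 genes was 0.18 and 4 of 42 (9.52%) were higher at an unadjusted limma p of at most 0.05, namely *Cdc6*, *Pola2*, *Pold1* and *Rfc2*. The background was then 6.54% higher and 6.42% lower, and 6 of 42 were separated upwards, against 9.94%. Separations named below for single genes are those of the deposited values, and this scaling did not keep all of them. Among the 42 genes it did not keep those of *Orc1*, *Gins2*, *Rfc3*, *Rfc5* and *Prim2*. With upper quartile scaling only *Cdc6* and *Pola2* remained of the 11, against 4.61% of all tested genes higher and 8.08% lower, and 4 of 42 were separated upwards, against 7.59%. In neither case was any of the 42 lower at that p. Relative to the median of all tested genes the 42 genes stood at 0.18 in the deposited values, 0.17 after median-of-ratios scaling and 0.16 after upper quartile scaling. In the deposited values this distance was 0.10 without oEV-ctrl 1 and 0.26 without oEV-ctrl 3. The order of the 42 genes, with each group's values, is laid out in the plots by library and by fold change.

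**Figure D1:**
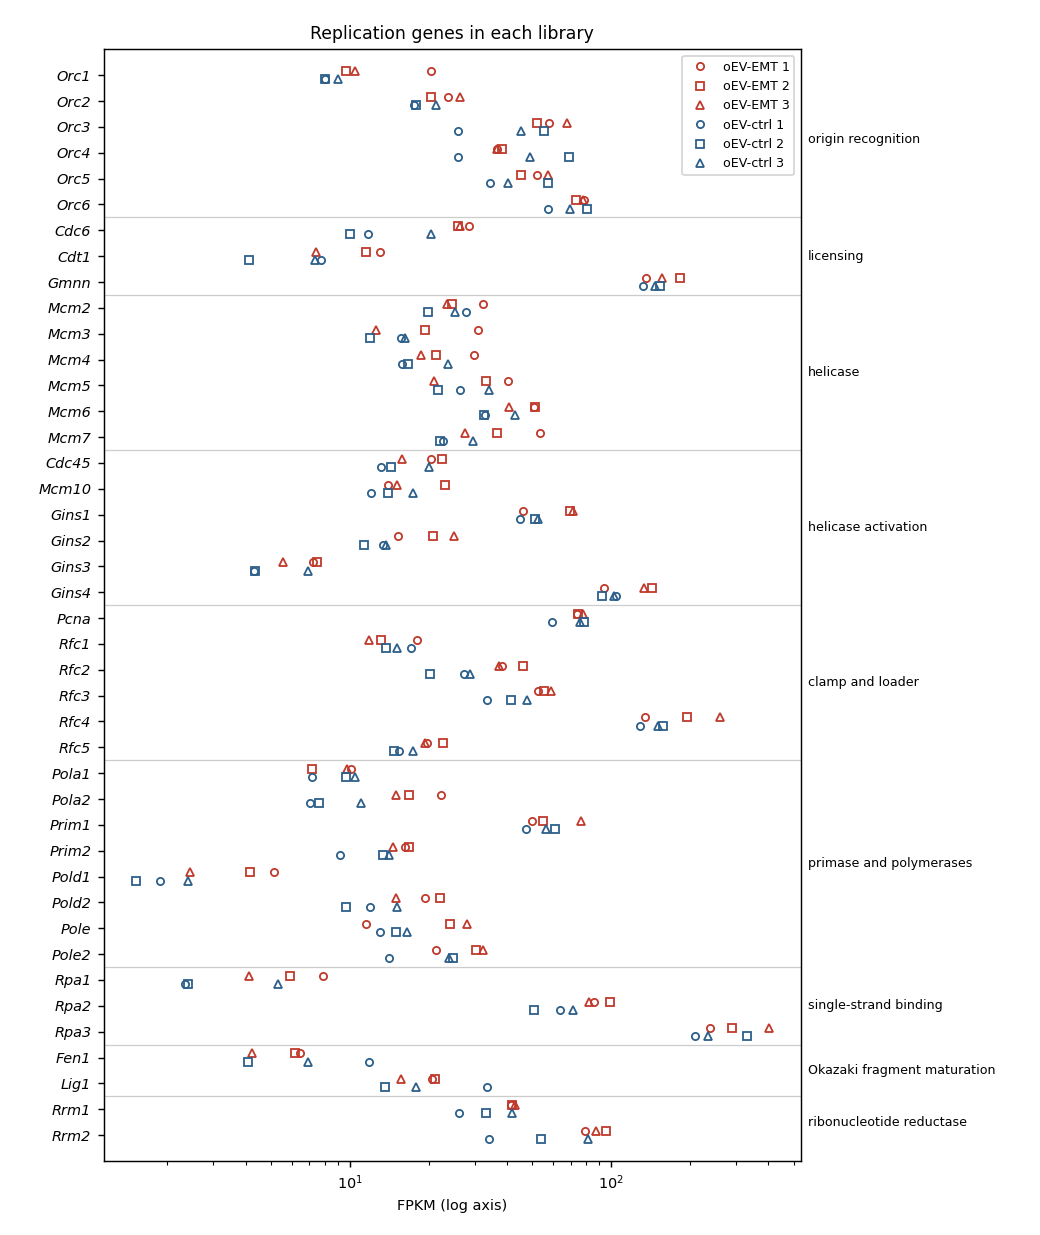
FPKM of the 42 replication genes (log axis) in the 3 oEV-EMT libraries (red) and the 3 oEV-ctrl libraries (blue), grouped by role, with circle, square and triangle for libraries 1, 2 and 3. Mean levels ran from 2.91 FPKM for *Pold1* to 284 FPKM for *Rpa3*, and the red and blue points were fully separated for 10 genes.

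**Figure D2:**
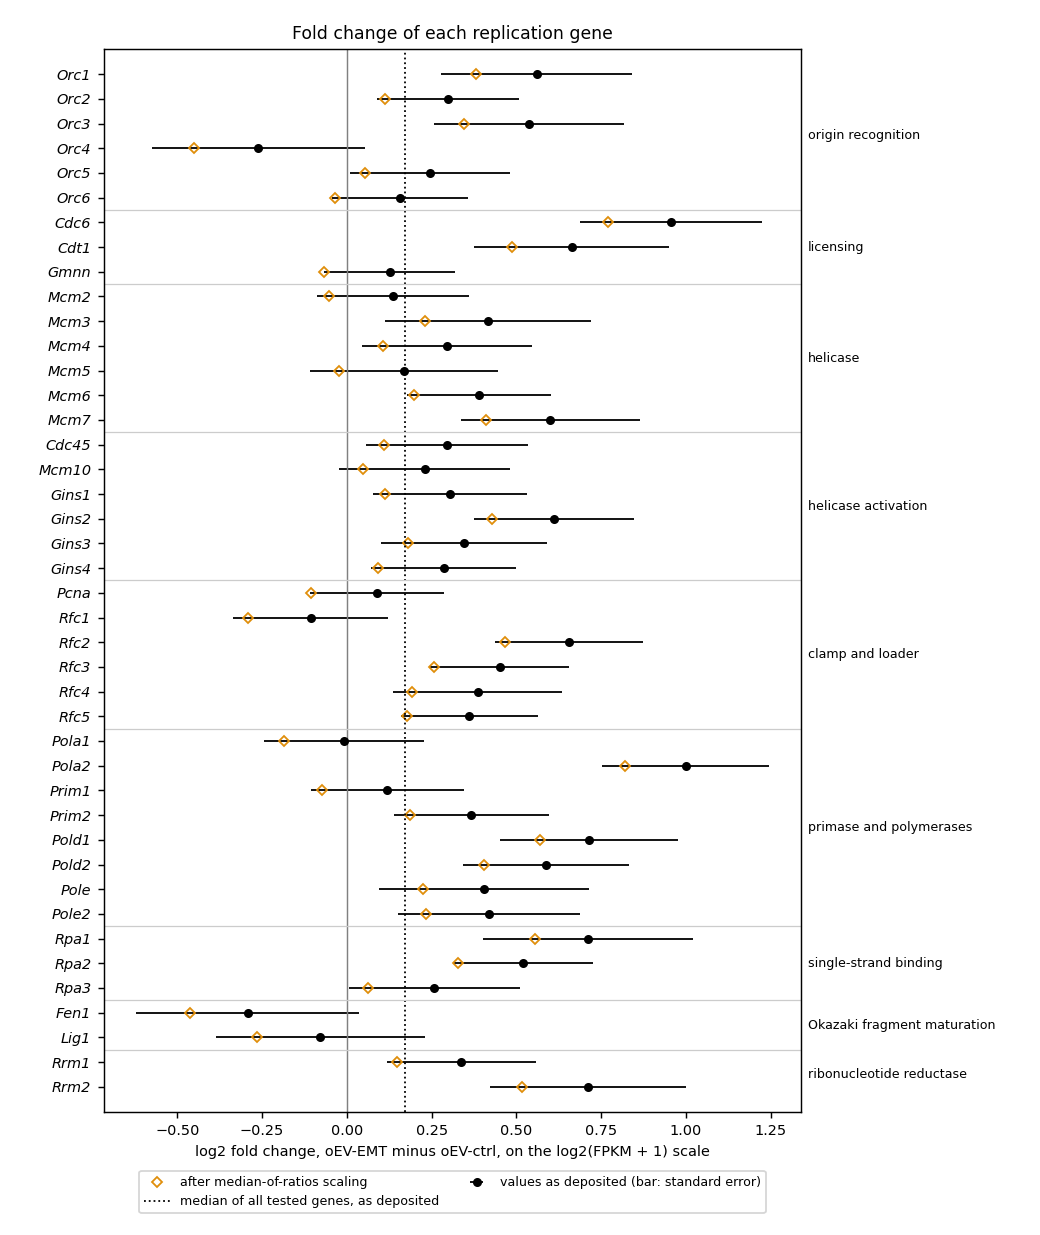
Log2 fold change of each gene (oEV-EMT minus oEV-ctrl on the log2(FPKM + 1) scale, 3 libraries per group) in the deposited values, with its standard error as a bar, and after median-of-ratios scaling (open diamonds). The dotted line at 0.17 is the median of all 11924 tested genes, and 31 of the 42 filled points lie to its right.

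The libraries differed in composition. The FPKM of a library summed to between 1293175 and 1551567, and the total of reads is unknown. From the steps between low values, the depth relative to oEV-EMT 1 was estimated at 0.483 to 0.880 in the other libraries and lowest in oEV-ctrl 1. Each estimate is rough, since it is the most frequent ratio, held by 25 to 46 of 4968 to 6414 genes compared. An unannotated entry of the table took 15.3% to 19.0% of the sum in oEV-EMT and 19.7% to 31.5% in oEV-ctrl, and mitochondrial genes took 3.93% to 4.84% and 5.96% to 7.45%. Median-of-ratios scaling removes a shift common to all genes, and any further part of these differences in the values of the replication genes was not tested. Markers of blastocyst cells were present. The summed FPKM of 8 trophectoderm markers was 3136 to 4746 in oEV-EMT and 3082 to 4836 in oEV-ctrl, and that of 5 primitive endoderm markers was 30.3 to 46.9 and 30.6 to 36.1, with 2 of 5 separated upwards in oEV-EMT. The summed FPKM of 6 epiblast markers was 81.8 to 105 in oEV-EMT and 41.0 to 62.3 in oEV-ctrl. Of the 6, 3 were separated upwards, namely *Nanog*, *Pou5f1* and *Fgf4*, while *Sox2*, *Klf2* and *Esrrb* overlapped. *Nanog*, the highest of them in every library, had 46.2 to 56.1 FPKM in oEV-EMT and 13.0 to 37.5 FPKM in oEV-ctrl. The background of upward separation was 18.1% of all tested genes. The part of these blastocyst markers in the replication genes' values was not tested. All 7 cumulus markers were below 1 FPKM in every library, with *Ptx3*, *Amh*, *Cyp19a1* and *Fshr* at 0, as were *Hbb-bs* and *Ptprc* of blood and *Foxj1* of ciliated oviduct epithelium. The third blood marker, *Hba-a1*, was listed at 0.524 to 2.22 FPKM in oEV-EMT and 0.472 to 1.22 FPKM in oEV-ctrl. The sum of 4 oviduct markers, 318 to 560 in oEV-EMT and 301 to 399 in oEV-ctrl, came from *Epcam*, which trophectoderm also expresses. Of 9 oocyte markers, 7 were below 1 FPKM in every library, and the summed FPKM was 3.95 to 7.07 in oEV-EMT and 2.42 to 3.34 in oEV-ctrl, with 1 of 9 separated upwards.

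The replication genes were well expressed, with 38 of 42 above the median level of all tested genes. Control library 3 held the highest control value for 26 of the 42 genes and the lowest for 0, and control library 1 held the lowest for 24. Over all 6 libraries the lowest value lay in oEV-ctrl 1 for 22 genes and in oEV-ctrl 2 for 16. The highest lay in oEV-EMT 1 for 12, in oEV-EMT 2 for 12 and in oEV-EMT 3 for 11. The mean log2(FPKM + 1) of the 42 genes exceeded that of all tested genes of the same library by 1.24, 1.31 and 1.31 in oEV-EMT and by 1.03, 1.08 and 1.20 in oEV-ctrl. The groups therefore kept their order in this description, with oEV-ctrl 3 nearest to oEV-EMT.

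Promoter sequences were read for the 11 genes that passed the unadjusted threshold, since E2F control is the best known feature that replication genes share. RefSeq windows of GRCm38.p6, from 250 bases before a gene's start to 50 bases after it, were at hand for 34 of the 42 genes and for 9 of the 11. The letters TTTGGCGC, TTTCCCGC, TTTCGCGC and TTTGCCGC, which resemble the E2F site, were searched on both strands. A gene with several starts was represented by the most upstream one, and positions are given relative to this RefSeq start. The GENCODE models of *Cdc6*, *Mcm7*, *Pold1*, *Pold2*, *Rpa2* and *Rrm2* begin further upstream still. The letters occurred in 13 of 34 windows (38.2%), against 4.37% of the 7911 windows of tested genes and 2.33% of all 27025 windows. The 13 were those of *Orc1*, *Orc3*, *Cdc6*, *Cdt1*, *Mcm3*, *Mcm5*, *Mcm6*, *Mcm7*, *Gins3*, *Rfc3*, *Pola1*, *Pold1* and *Pole2*, and in *Mcm5* and *Mcm6* matches overlapped each other. CCAAT, the letters bound by NF-Y, occurred in 23 of 34 windows (67.6%), against 40.3% of tested genes' windows and 38.0% of all, and overlapped an E2F-like match in *Mcm7*. Of the 9 windows of genes past the unadjusted threshold, 4 (44.4%) held E2F-like letters and 5 (55.6%) held CCAAT. A match of letters is a description of the sequence and not a bound site.

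The stretches around these matches are printed to show the letters behind the count, with capitals for the E2F-like match, each 5′ to 3′ on the gene's own strand. That of *Cdc6* lies at chr11:98908002-98908031 (plus strand), before the RefSeq start but within the longer GENCODE gene. That of *Cdt1* lies at chr8:122568036-122568064 (plus strand), after the start. *Mcm7* has one before the RefSeq start at chr5:138172030-138172059 and one after it at chr5:138171849-138171878 (minus strand), both within the longer GENCODE gene. That of *Pold1* lies at chr7:44548766-44548787 (minus strand), after the start.
Cdc6: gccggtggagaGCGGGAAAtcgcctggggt
Cdt1: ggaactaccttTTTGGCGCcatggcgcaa
Mcm7, before the start: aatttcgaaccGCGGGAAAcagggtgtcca
Mcm7, after the start: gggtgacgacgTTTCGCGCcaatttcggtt
Pold1: cgtatcttgtgGCGGGAAAagc

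The other genes of the 11 with a window held no such letters in it. For comparison, 100 bases before the start, ending where the GENCODE gene begins or earlier, are given for *Pola2*, the gene with the largest fold change, and for *Rpa2* and *Rrm2*, which hold CCAAT on the minus and on the plus strand of the stretch, respectively, all in lower case since no E2F-like match falls in them. They lie at chr19:5964207-5964306 (minus strand), chr4:132768232-132768331 (plus strand) and chr12:24708141-24708240 (plus strand).
Pola2: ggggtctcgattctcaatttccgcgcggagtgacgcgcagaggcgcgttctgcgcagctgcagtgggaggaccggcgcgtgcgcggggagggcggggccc
Rpa2: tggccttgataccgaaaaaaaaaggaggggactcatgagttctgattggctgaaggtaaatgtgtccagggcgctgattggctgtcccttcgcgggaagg
Rrm2: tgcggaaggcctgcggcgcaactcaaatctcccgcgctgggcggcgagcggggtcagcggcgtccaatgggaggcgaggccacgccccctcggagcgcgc

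The origin recognition complex, the platform on which the helicase is loaded, had 5 of its 6 genes above 0, with a median log2 fold change of 0.27, and 0 passed the unadjusted threshold. *Orc1*, its ATP-binding and cell-cycle regulated subunit, was the lowest of the 6, at 20.4, 9.65 and 10.5 FPKM in oEV-EMT libraries 1, 2 and 3 and 8.01, 7.99 and 9.04 FPKM in oEV-ctrl libraries 1, 2 and 3. The groups did not overlap, but oEV-EMT 1 stood far above the other libraries, and the log2 fold change of 0.56 ± 0.28 (SE, n = 3 per group, limma adjusted p = 0.373) was 0.24 without it. *Orc4*, an ATP-binding subunit of the core, was the only one below 0, at -0.26 ± 0.31 (SE, limma adjusted p = 0.718). It had 36.5, 38.1 and 36.5 FPKM in oEV-EMT and 26.0, 69.2 and 48.8 FPKM in oEV-ctrl, so the oEV-EMT libraries lay close together inside a wide control range. The log2 fold change was 0.05 without oEV-ctrl 2 and -0.64 without oEV-ctrl 1, where *Orc4* was lower at an unadjusted limma p of at most 0.05. *Orc6*, the subunit least alike to the others and the most abundant, had 78.4, 73.7 and 78.0 FPKM in oEV-EMT and 57.3, 80.9 and 69.7 FPKM in oEV-ctrl, and its log2 fold change of 0.16 became -0.04 after median-of-ratios scaling. Exons of *Orc6* overlap those of *Vps35* on the other strand, which reached 87.3 FPKM, so its level is uncertain. The remaining subunits all had overlapping groups. *Orc2* had 23.8, 20.5 and 26.4 FPKM in oEV-EMT and 17.6, 17.9 and 21.3 FPKM in oEV-ctrl, part of it in exons shared with *Nif3l1* on the other strand. *Orc3*, a core subunit, had 57.6, 51.9 and 67.8 FPKM in oEV-EMT and 25.9, 55.2 and 45.2 FPKM in oEV-ctrl, and its log2 fold change of 0.54 was 0.23 without oEV-ctrl 1. *Orc5*, another core subunit, had 51.9, 45.3 and 57.2 FPKM in oEV-EMT and 34.5, 57.5 and 40.3 FPKM in oEV-ctrl, for a log2 fold change of 0.25. *Orc6* exceeded *Orc1* in all 6 libraries, by 6.68-fold in the means.

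Of the 3 licensing genes, 2 passed the unadjusted threshold and geminin did not. *Cdc6* (ENSMUSG00000017499, GRCm38 chr11:98907801-98923940, plus strand), the ATPase that joins the origin recognition complex to the helicase, had 28.6, 26.0 and 26.3 FPKM in oEV-EMT and 11.7, 9.96 and 20.5 FPKM in oEV-ctrl. The oEV-EMT libraries were all above the controls and lay within a narrow band, with 27.0 ± 1.40 FPKM (SD, n = 3) against 14.1 ± 5.66 FPKM. The log2 fold change was 0.96 ± 0.27 (SE, limma adjusted p = 0.171), 0.77 after median-of-ratios scaling, 0.70 after upper quartile scaling and 0.76 to 1.24 when any library was left out. *Cdt1*, its partner in helicase loading, had 13.1, 11.5 and 7.42 FPKM in oEV-EMT and 7.76, 4.12 and 7.36 FPKM in oEV-ctrl. Here oEV-EMT 3 was at the level of controls 1 and 3, so the groups overlapped, and the log2 fold change was 0.66 ± 0.29 (SE, limma adjusted p = 0.310), and 0.42 without oEV-ctrl 2.

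*Gmnn* encodes geminin, the inhibitor of CDT1, and was the most abundant gene of the 3, with 136, 184 and 156 FPKM in oEV-EMT and 132, 155 and 147 FPKM in oEV-ctrl. Its groups overlapped, and the log2 fold change of 0.13 ± 0.19 (SE, limma adjusted p = 0.785) was -0.07 after median-of-ratios scaling. *Gmnn* exceeded *Cdt1* 10.4, 15.9 and 21-fold in oEV-EMT and 17.1, 37.5 and 20.0-fold in oEV-ctrl. The FPKM of *Cdt1* and *Cdc6* added up, on the log2(FPKM + 1) scale, to 5.42, 5.27 and 5.12 in oEV-EMT and 4.36, 3.92 and 4.85 in oEV-ctrl, with no overlap. The difference of 0.89 had an exact permutation p of 0.1 (two-sided), the smallest that 3 against 3 libraries allow, and 0.7 after adjustment over 7 such measures, while the difference in log2 *Gmnn* over *Cdt1* was -0.54 (exact permutation p = 0.4, adjusted p = 0.7).

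The MCM2-7 helicase, the ring that unwinds DNA, had all 6 genes above 0 in the deposited values, with a median log2 fold change of 0.34, and 4 of 6 after median-of-ratios scaling, where *Mcm2* stood at -0.05 and *Mcm5* at -0.02. *Mcm7* (GRCm38 chr5:138164583-138172422, minus strand) has E2F-like letters on both sides of its RefSeq start, both within the longer GENCODE gene. It had 53.4, 36.6 and 27.5 FPKM in oEV-EMT and 22.7, 22.2 and 29.5 FPKM in oEV-ctrl. Its groups overlapped between oEV-EMT 3 and oEV-ctrl 3, and the log2 fold change of 0.60 ± 0.26 (SE, limma adjusted p = 0.316) was 0.35 without oEV-EMT 1. Exons of *Mcm7* overlap those of *Cops6* on the other strand, which reached 123 FPKM, and the library preparation was not described as keeping strand, so that reads of the overlap cannot be told apart. *Mcm6*, the highest of the ring, had 50.7, 51.0 and 40.7 FPKM in oEV-EMT and 32.9, 32.5 and 42.9 FPKM in oEV-ctrl, and its log2 fold change was 0.39 ± 0.21 (SE, limma adjusted p = 0.403). *Mcm3*, the lowest, had 30.9, 19.5 and 12.6 FPKM in oEV-EMT and 15.7, 12.0 and 16.3 FPKM in oEV-ctrl, so that oEV-EMT held both its highest value and nearly its lowest.

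The other subunits overlapped between the groups. *Mcm2* had 32.4, 24.5 and 23.6 FPKM in oEV-EMT and 27.8, 19.9 and 25.2 FPKM in oEV-ctrl. *Mcm4* had 30.0, 21.3 and 18.6 FPKM in oEV-EMT and 15.9, 16.6 and 23.8 FPKM in oEV-ctrl. *Mcm5* had 40.2, 33.1 and 21 FPKM in oEV-EMT and 26.4, 21.7 and 34.1 FPKM in oEV-ctrl. In *Mcm2*, *Mcm3*, *Mcm4*, *Mcm5* and *Mcm7* the highest of the 6 values was that of oEV-EMT 1. The 6 genes summed to 238, 186 and 144 FPKM in oEV-EMT and 141, 125 and 172 FPKM in oEV-ctrl, so that oEV-EMT 3 lay among the controls. The ring holds its subunits in equal number, and the transcripts lay within a 2.35-fold range of means. The log2 distance of the highest from the lowest subunit differed by 0.01 between the groups (exact permutation p = 0.9, adjusted p = 0.9 over 7 measures). In the origin recognition complex, GINS, RFC and RPA this distance differed by -0.40, -0.06, 0.45 and -0.45 (exact permutation p between 0.4 and 0.9), and all these groups overlapped.

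Helicase activation was represented by *Cdc45*, *Mcm10* and the 4 GINS genes. All 6 were above 0 in the deposited values and after median-of-ratios scaling, with a median of 0.30 in the former, and 1 passed the unadjusted threshold. *Gins2*, a subunit of the GINS tetramer, had 15.3, 20.8 and 25.1 FPKM in oEV-EMT and 13.4, 11.3 and 13.8 FPKM in oEV-ctrl. All oEV-EMT libraries were above all controls in the deposited values, but not after median-of-ratios scaling. The means were 20.4 ± 4.90 FPKM (SD, n = 3) against 12.8 ± 1.34 FPKM. The log2 fold change was 0.61 ± 0.24 (SE, limma adjusted p = 0.263), and 0.43 after that scaling. The most abundant of the 6, *Gins4*, had 94.3, 143 and 134 FPKM in oEV-EMT and 104, 92.0 and 103 FPKM in oEV-ctrl, and oEV-EMT 1 lay among the controls. The least abundant, *Gins3*, had 7.20, 7.48 and 5.56 FPKM in oEV-EMT and 4.28, 4.34 and 6.90 FPKM in oEV-ctrl. *Gins4* exceeded *Gins3* in all 6 libraries, by 18.7-fold in the means, although the GINS proteins act in equal number. *Gins1* had 45.8, 69.8 and 71.4 FPKM in oEV-EMT and 44.9, 50.9 and 52.5 FPKM in oEV-ctrl, again with oEV-EMT 1 among the controls. *Cdc45* and *Mcm10*, which both act when the helicase starts, had log2 fold changes of 0.30 and 0.23 with overlapping groups.

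The sliding clamp and its loader divided between genes near 0 and genes above it. *Pcna*, the clamp that holds polymerases on DNA, had 73.8, 74.6 and 77.9 FPKM in oEV-EMT and 59.3, 78.8 and 76.2 FPKM in oEV-ctrl, and its log2 fold change of 0.09 ± 0.20 (SE, limma adjusted p = 0.856) was -0.11 after median-of-ratios scaling. *Rfc2* (ENSMUSG00000023104, GRCm38 chr5:134581366-134601805, plus strand), a small subunit of the loader, had 38.2, 46.0 and 37.3 FPKM in oEV-EMT and 27.5, 20.3 and 28.7 FPKM in oEV-ctrl. The groups did not overlap in the deposited values, with 40.5 ± 4.79 FPKM (SD, n = 3) against 25.5 ± 4.56 FPKM. The log2 fold change was 0.66 ± 0.22 (SE, limma adjusted p = 0.216), 0.47 after median-of-ratios scaling and 0.40 after upper quartile scaling. It was 0.51 to 0.75 when any library was left out. *Rfc2* fell short of the unadjusted threshold after upper quartile scaling, without oEV-EMT 2 and without oEV-ctrl 2. The small subunits *Rfc3* and *Rfc5* were separated too in the deposited values, short of the unadjusted threshold, but not after median-of-ratios scaling. *Rfc3* had 52.5, 55.5 and 58.7 FPKM in oEV-EMT and 33.5, 41.3 and 47.5 FPKM in oEV-ctrl, and its log2 fold change was 0.45 (limma adjusted p = 0.332). *Rfc5* had 19.7, 22.8 and 19.5 FPKM in oEV-EMT and 15.4, 14.8 and 17.4 FPKM in oEV-ctrl, and its log2 fold change was 0.36 (limma adjusted p = 0.417).

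*Rfc4*, the most abundant loader subunit, had 135, 196 and 262 FPKM in oEV-EMT and 129, 158 and 151 FPKM in oEV-ctrl, and oEV-EMT 1 lay among the controls. Exons of *Rfc4* overlap those of *Eif4a2* on the other strand, which reached 166 FPKM, so its level is uncertain. *Rfc1*, the large subunit, had 18.1, 13.1 and 11.8 FPKM in oEV-EMT and 17.1, 13.8 and 15.2 FPKM in oEV-ctrl, and was below 0 at -0.11 ± 0.23 (SE, limma adjusted p = 0.848). The mean log2 of *Rfc2* to *Rfc5* exceeded *Rfc1* by 1.37, 2.07 and 2.21 in oEV-EMT and by 1.08, 1.39 and 1.47 in oEV-ctrl, a measure chosen after its values were seen and not tested. By it oEV-EMT 1 lay among the controls.

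Among primase and the polymerases, 7 of 8 genes were above 0, with a median of 0.41, and 3 passed the unadjusted threshold. *Pola2* (ENSMUSG00000024833, GRCm38 chr19:5940542-5964202, minus strand), the accessory B subunit of polymerase alpha, had 22.3, 16.8 and 15.0 FPKM in oEV-EMT and 7.04, 7.64 and 11.0 FPKM in oEV-ctrl. The groups were separated, with 18.0 ± 3.75 FPKM (SD, n = 3) against 8.55 ± 2.12 FPKM, a ratio of means of 2.11. The log2 fold change of 1.00 ± 0.25 (SE, limma adjusted p = 0.157) was the largest of the 42 genes, and was 0.82 after median-of-ratios scaling and 0.85 to 1.17 when any library was left out. *Pola1*, the catalytic subunit of the same polymerase, had 10.1, 7.16 and 9.76 FPKM in oEV-EMT and 7.16, 9.64 and 10.5 FPKM in oEV-ctrl, and its log2 fold change was -0.01 ± 0.24 (SE, limma adjusted p = 0.988). *Pola2* therefore exceeded *Pola1* by 1.06, 1.13 and 0.58 on the log2(FPKM + 1) scale in oEV-EMT and by -0.02, -0.30 and 0.06 in oEV-ctrl, a ratio in which a factor common to a library cancels but for the pseudocount, chosen after its values were seen and not tested.

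*Prim1*, the catalytic primase subunit, was the most abundant of these genes, with 49.9, 54.7 and 76.6 FPKM in oEV-EMT and 47.4, 61.0 and 56.2 FPKM in oEV-ctrl, and its log2 fold change of 0.12 was -0.07 after median-of-ratios scaling. *Prim2*, the large primase subunit, had 16.2, 16.8 and 14.6 FPKM in oEV-EMT and 9.16, 13.4 and 14.2 FPKM in oEV-ctrl, with no overlap and a log2 fold change of 0.37 ± 0.23 (SE, limma adjusted p = 0.469), which was 0.19 without oEV-ctrl 1. *Pold1* (ENSMUSG00000038644, GRCm38 chr7:44532746-44548849, minus strand), the catalytic subunit of polymerase delta, was the least abundant of all 42 genes, with 5.12, 4.14 and 2.43 FPKM in oEV-EMT and 1.88, 1.51 and 2.39 FPKM in oEV-ctrl. Its oEV-EMT libraries were above all controls, though oEV-EMT 3 and oEV-ctrl 3 nearly met, and the log2 fold change was 0.71 ± 0.26 (SE, limma adjusted p = 0.248). *Pold2*, the accessory subunit, had 19.5, 22.2 and 15.0 FPKM in oEV-EMT and 11.9, 9.69 and 15.2 FPKM in oEV-ctrl. Its groups overlapped at oEV-EMT 3 and oEV-ctrl 3, and the log2 fold change was 0.59 ± 0.24 (SE, limma adjusted p = 0.293). *Pole* and *Pole2* of polymerase epsilon had log2 fold changes of 0.41 and 0.42 with overlapping groups.

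**Figure D3:**
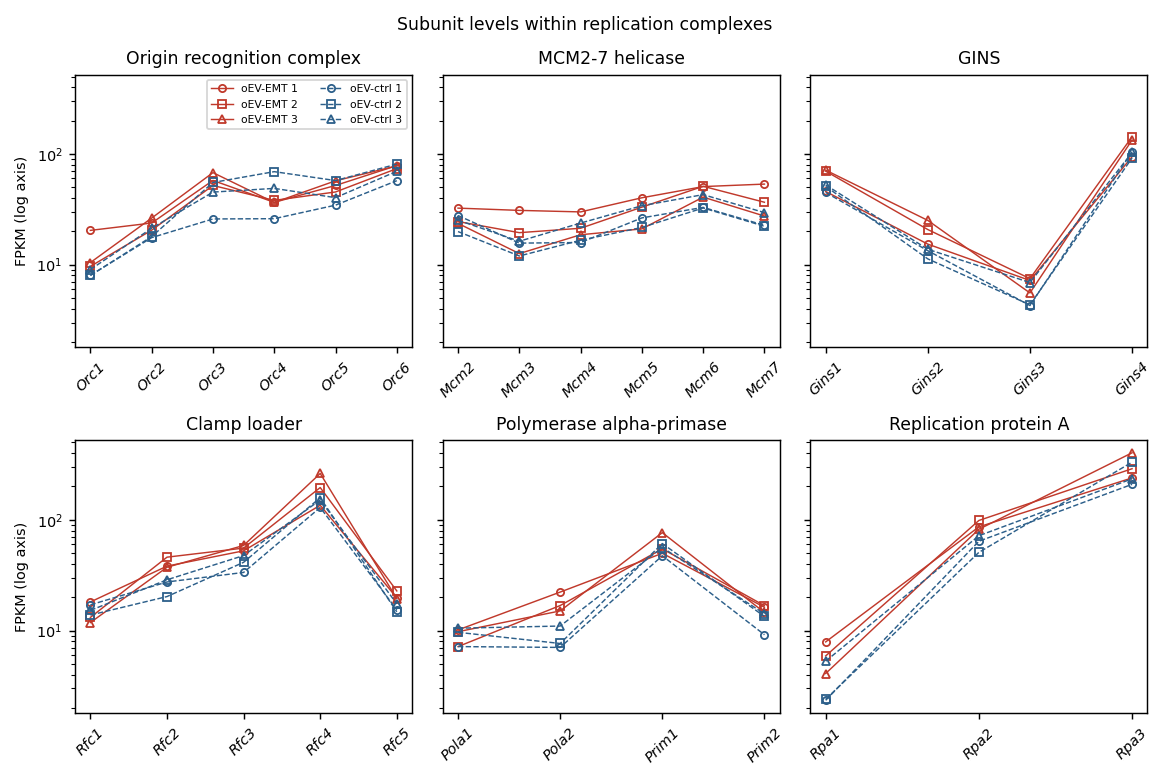
FPKM (log axis) of the subunits of 6 replication complexes, with a line for each library (red, solid, oEV-EMT; blue, dashed, oEV-ctrl; circle, square and triangle for libraries 1, 2 and 3). From *Pola1* to *Pola2* the oEV-EMT lines climb by 0.58 to 1.13 on the log2(FPKM + 1) scale and the oEV-ctrl lines move by -0.30 to 0.06, while the lines of both groups cross in the MCM ring and in RPA.

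The single-strand binding protein RPA, which coats unwound DNA, had all 3 genes above 0, with 2 past the unadjusted threshold. *Rpa1*, the large subunit, had 7.90, 5.90 and 4.09 FPKM in oEV-EMT and 2.34, 2.40 and 5.29 FPKM in oEV-ctrl. Its oEV-ctrl 3 lay above oEV-EMT 3, and the log2 fold change was 0.71 ± 0.31 (SE, limma adjusted p = 0.312). *Rpa2*, the middle subunit, had 86.3, 98.6 and 82.1 FPKM in oEV-EMT and 64.0, 50.8 and 71.8 FPKM in oEV-ctrl, with no overlap. That made 89.0 ± 8.58 FPKM (SD, n = 3) against 62.2 ± 10.6 FPKM and a log2 fold change of 0.52 ± 0.21 (SE, limma adjusted p = 0.273). *Rpa3*, the small subunit and the most abundant of the 42 genes, had 239, 289 and 403 FPKM in oEV-EMT and 209, 332 and 235 FPKM in oEV-ctrl, with overlapping groups. *Rpa3* exceeded *Rpa1* in all 6 libraries, by 61.1-fold in the means, although the proteins form a trimer.

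The genes of Okazaki fragment maturation were the only role in which no member was above 0. *Fen1*, the nuclease that trims the flap of a fragment, had 6.45, 6.18 and 4.22 FPKM in oEV-EMT and 11.8, 4.07 and 6.92 FPKM in oEV-ctrl, and its log2 fold change was -0.29 ± 0.33 (SE, limma adjusted p = 0.698). *Lig1*, the ligase that seals the nick, had 20.7, 21.2 and 15.7 FPKM in oEV-EMT and 33.4, 13.6 and 17.9 FPKM in oEV-ctrl, and its log2 fold change was -0.08 ± 0.31 (SE, limma adjusted p = 0.923). Both genes were highest in oEV-ctrl 1, the library in which 22 other members had their lowest value of the 6, and without it the log2 fold changes were 0.05 and 0.27. *Lig1* also turned, to 0.05, without oEV-EMT 3. *Fen1* also overlaps *Tmem258* on the other strand, which reached 86.2 FPKM.

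Ribonucleotide reductase makes the deoxynucleotides used in replication. *Rrm2*, its regulated small subunit, had 79.7, 95.7 and 87.5 FPKM in oEV-EMT and 34.1, 53.8 and 81.2 FPKM in oEV-ctrl. The control values were spread widely and oEV-ctrl 3 lay above oEV-EMT 1, with 87.6 ± 8.0 FPKM (SD, n = 3) against 56.3 ± 23.7 FPKM. The log2 fold change was 0.71 ± 0.29 (SE, limma adjusted p = 0.285), and 0.40 without oEV-ctrl 1. *Rrm1*, the large subunit, had 41.3, 41.9 and 42.9 FPKM in oEV-EMT and 26.2, 33.2 and 41.6 FPKM in oEV-ctrl, and its log2 fold change was 0.34 ± 0.22 (SE, limma adjusted p = 0.487). For both genes oEV-EMT lay within a narrow band and oEV-ctrl 3 was at its level.

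**Figure D4:**
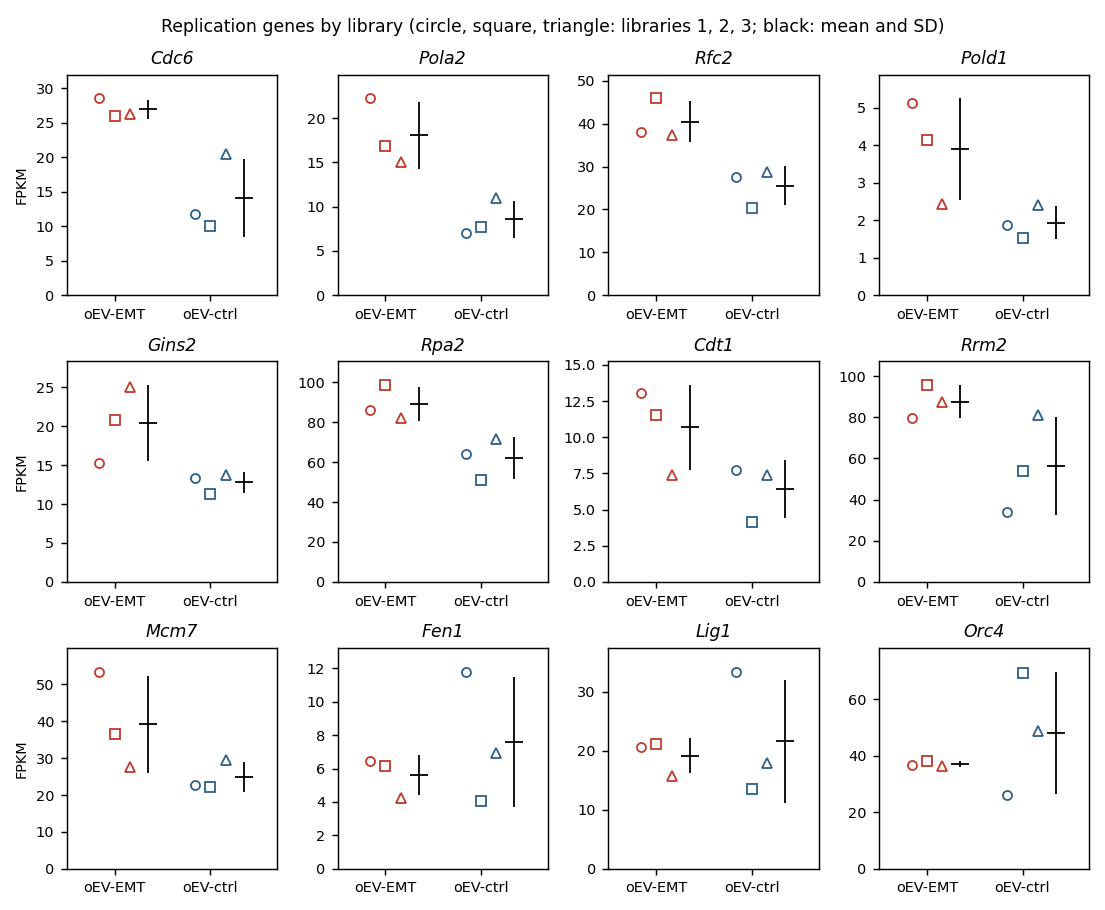
FPKM by library (red oEV-EMT, blue oEV-ctrl, linear axes from 0) for 9 of the 11 genes past the unadjusted threshold and for *Fen1*, *Lig1* and *Orc4*, with the mean and SD of each group of 3 in black. *Cdc6*, *Pola2*, *Rfc2*, *Pold1*, *Gins2* and *Rpa2* show no overlap, the highest value of *Fen1* and *Lig1* is that of oEV-ctrl 1, and in *Orc4* oEV-ctrl 2 and oEV-ctrl 3 lie above all 3 oEV-EMT libraries and oEV-ctrl 1 below them.

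Transcript length and sequence shared with other genes limit what FPKM can show. Exon length ran from 1136 bases for *Rpa3* to 11160 bases for *Pole*, and across the 42 genes, which are not independent replicates and share libraries, the mean log2 level had a Spearman rho of -0.38 with exon length while the log2 fold change had one of 0.08. Exons of 7 members (*Orc2*, *Orc5*, *Orc6*, *Mcm7*, *Cdc45*, *Rfc4* and *Fen1*) overlapped those of a gene of at least 10 FPKM, and the strand of reads was not stated. Of *Pcna* transcript stretches of 50 bases, 19.1% also occurred in the pseudogene *Pcna-ps2*, which reached 27.9 FPKM, so its level is uncertain.

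A further 63 genes of replication and its supply, from regulators of licensing to nucleotide synthesis and the E2F factors, were counted for comparison, of which 55 were tested. The activators *E2f1*, *E2f2* and *E2f3*, with *E2f7*, *Rb1*, *Rbl2*, *Mcm9* and *Recql4*, fell under the expression filter. Of the 55, 12 (21.8%, against 12.8% of all tested genes) were higher and 0 lower (against 2.55%) at an unadjusted limma p of at most 0.05, 0 passed an adjusted p of 0.05, and the median log2 fold change was 0.29. For 16 (29.1%, against 18.1%) the groups were separated upwards and for 2 (3.64%, against 4.34%), *Cul4b* and *Nme2*, downwards. After median-of-ratios scaling 5 (9.09%, against 6.54%) were higher and 1 (1.82%, against 6.42%) lower.

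The 10 genes with the smallest p of these, all at or under an unadjusted 0.05, were led by nucleotide supply. *Tk1*, the thymidine kinase of S phase, had 112, 143 and 141 FPKM in oEV-EMT and 65.0, 72.1 and 97.3 FPKM in oEV-ctrl, with no overlap and a log2 fold change of 0.76 ± 0.22 (SE, limma adjusted p = 0.174). *Dtymk*, the next kinase towards dTTP, had 446, 478 and 539 FPKM in oEV-EMT and 307, 330 and 335 FPKM in oEV-ctrl, also with no overlap, and a log2 fold change of 0.59 ± 0.18 (SE, limma adjusted p = 0.188). *Dut*, which removes dUTP, and *Nme1*, a nucleoside diphosphate kinase, had log2 fold changes of 0.47 and 0.52. *Dtl*, the adaptor through which CUL4 ubiquitin ligase removes CDT1, had 10.2, 6.52 and 6.71 FPKM in oEV-EMT and 0.953, 6.15 and 2.75 FPKM in oEV-ctrl, and its log2 fold change of 1.21 ± 0.43 (SE, limma adjusted p = 0.242) came with groups that were just separated and a control 1 far below the other libraries. *Chaf1b*, a subunit of the histone chaperone that follows the fork, *Rnaseh2c*, of the enzyme that removes ribonucleotides, *E2f4*, *Tfdp1*, its dimer partner, and *Chtf8*, of an alternative clamp loader, had log2 fold changes of 0.80, 0.69, 0.84, 0.57 and 0.84. Without oEV-EMT 1 that of *E2f4* was 0.51 and that of *Chtf8* 0.44. Without oEV-ctrl 1 that of *Tfdp1* was 0.37 and that of *Dtl* 0.74.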

How the data were processed

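Embryo libraries of poly(A) RNA were prepared with a TruSeq kit. The authors deposited 1 table of FPKM values per gene and library. The submitters' processing notes name StringTie and mm10, and the aligner is not given in the sources used here. Although TPM is named in the study's methods, the values of a library sum to more than 1000000 and to different totals, so the deposited values were taken as FPKM. Absolute depth is unknown, whole reads could not be recovered from the values, and no interval from counts is given. Members and lists were chosen with earlier results of these data known. Identifiers and coordinates came from GENCODE M21 (GRCm38), which matched 55227 of 55487 Ensembl identifiers, and 287 entries were unannotated.

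Genes with at least 1 FPKM in 3 or more libraries (11924) were tested as log2(FPKM + 1), without scaling, by limma 3.58.1 in R 4.3.3 with an intensity trend and robust moderation, with Benjamini-Hochberg adjustment over all of them. A fold change on this scale understates the change of low genes. The call was an adjusted p of at most 0.05 with a log2 fold change of at least 1 in either direction, and the unadjusted p and the overlap of groups are given as descriptions. The test was also run on simulated data, whose outcome is not given here. Subunit distances were compared by exact permutation tests over 6 libraries. Values in every library are given for members with an unadjusted p of at most 0.05, for the 5 largest fold changes in each direction, for the highest and lowest member of each role and for members of a subunit ratio, and of the other genes the 10 with the smallest p are named. The alternatives were other scalings, filters and pseudocounts, library weights, a length correction, the replicate number as a block, and dropping each library in turn. More than 1 Ensembl identifier carries the symbol *Chtf8*, and the more expressed one was used. In 28 of 34 promoter windows the bases after the start were found in the gene's own transcript, in 0 reversed.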

Additional observations from a re-analysis of the deposited data

How the results depend on the processing

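No gene of the 42 passed an adjusted p of 0.05 under any alternative, and the 11 with an unadjusted limma p of at most 0.05 kept a positive log2 fold change under every one. With library weights, chosen after the data were seen, 15 of 42 (35.7%) were higher at an unadjusted limma p of at most 0.05, against 18.4% of all tested genes, and the smallest adjusted p was 0.0664. The count of 11 was 4 after median-of-ratios scaling (background 6.54%), 2 after upper quartile scaling (4.61%) and 6 without the expression filter (5.51%). It was 3 to 12 when 1 library was left out, against 7.96% to 14.0% of all tested genes. Under these settings 0 to 1 were lower, against 1.64% to 8.08%. Separated genes numbered 6 and 4 after these scalings, against 9.94% and 7.59% of all tested genes. With a library left out they numbered 11 to 20, against 21.9% to 30.6%, and 0 to 1 were lower, against 5.87% to 12.5%. Dropping a library cannot undo a separation, so such counts could only stay or rise. The median was 0.177 and 0.114 after the scalings, and its distance from all genes was 0.331 without the filter, where more genes were tested, and 0.096 (without oEV-ctrl 1) to 0.257 (without oEV-ctrl 3) with a library left out. Among the other replication genes the count of 12 was 5 and 1 after the scalings, against 6.54% and 4.61%. It was 7 without the filter, against 5.51%, and 3 to 12 with a library left out, against 7.96% to 14.0%. After the scalings 1 and 2 were lower, against 6.42% and 8.08%, and with a library left out 0 to 1, against 1.64% to 4.84%. Their separated genes numbered 5 (9.09%) and 3 (5.45%) higher after the scalings, against 9.94% and 7.59% of all tested genes. In the other direction they numbered 7 (12.7%) and 7 (12.7%), against 10.2% and 12.5%. When sums were set to 1000000, 0 were lower, against 2.71%, and with a library left out 2 to 6, against 5.87% to 12.5%. Their median was 0.102, 0.042, 0.163 without the filter and 0.174 with a pseudocount of 5.

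Same-numbered libraries had correlations of deviations of 0.119, -0.0442 and 0.0388, so the numbers were not taken as pairs. With the replicate number as a block 7 of the 42 (16.7%) and 7 of the other genes (12.7%) were higher at an unadjusted limma p of at most 0.05, against 11.2% of all tested genes, no other call moved, and not every library correlated best with its own number (oEV-EMT 3 with oEV-ctrl 2, 0.122).

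The direction turned in 14 genes with small fold changes. After median-of-ratios and upper quartile scaling it was -0.069 and -0.139 for *Gmnn*, -0.053 and -0.12 for *Mcm2*, -0.022 and -0.09 for *Mcm5*, -0.036 and -0.106 for *Orc6*, -0.106 and -0.175 for *Pcna* and -0.074 and -0.143 for *Prim1*. After upper quartile scaling alone it was -0.021 for *Mcm10*, -0.015 for *Orc5* and -0.008 for *Rpa3*. With sums of 1000000 it was 0.012 for *Lig1* and 0.07 for *Pola1*, with library weights 0.103 for *Lig1*, and with the length trend removed -0.016 for *Pcna* and 0.06 for *Pola1*. With 1 library left out the ranges crossed 0, from -0.623 to 0.045 for *Fen1*, -0.347 to 0.273 for *Lig1*, -0.002 to 0.236 for *Mcm2*, -0.028 to 0.423 for *Mcm5*, -0.637 to 0.051 for *Orc4*, -0.04 to 0.163 for *Pcna*, -0.156 to 0.131 for *Pola1*, -0.063 to 0.242 for *Prim1* and -0.276 to 0.013 for *Rfc1*. The distance of the highest from the lowest subunit turned in GINS (0.062 with a pseudocount of 5, -0.242 to 0.167 with a library left out) and in the MCM ring (-0.166 to 0.236). The cause was not tested.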
